A study of Mus musculus with 8 samples.

Results

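Cdon and 8 other genes of the Hedgehog pathway (Boc, Gas1, Ptch1, Smo, Gli1, Gli2, Gli3 and Hhip) were followed in cultured mouse heart cells. They are 9 of the 29844 rows of the coding gene count table and were found by matching Ensembl gene IDs to these symbols. Cdon was chosen by its stiff-over-soft count difference in these same libraries, where its p ranked 11 of 14059, and the other 8 because they are its partners in the pathway. The stiff-over-soft values are therefore given as a description, and no test of that difference is read for any of the 9.

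The cells were primary embryonic cardiomyocytes from mouse embryos at E18.5, all carrying the H2B-eGFP transgene B6.Cg-Tg(HIST1H2BB/EGFP)1Pa/J, a fluorescent histone. One set of 4 libraries came from cells on stiff silicone rubber (PDMS, about 150 kPa) and the other 4 from cells on soft PDMS (about 10 kPa, described by the submitters as physiological). On both, cells were kept for 4 days, until confluent and contracting, in medium with serum before total RNA was sequenced. Hearts were digested to single cells, and the labels name no step that would remove other heart cells, nor do they say whether the 4 libraries of a substrate were separate cultures.

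In Hedgehog signalling, a secreted ligand (Sonic, Indian or Desert hedgehog) binds the receptor Patched-1, which otherwise holds the membrane protein Smoothened inactive. Cdon, Boc and Gas1 are cell surface co-receptors that help the ligand bind. Active Smoothened, acting at the primary cilium, switches the Gli transcription factors from repressor to activator forms, and Ptch1, Gli1 and Hhip are themselves direct targets whose RNA is widely used as a readout of the pathway. In the embryonic heart the pathway is known for its part in septation, outflow tract formation and coronary vessel growth. Cdon is also known, apart from Hedgehog, as a partner of cadherins that promotes muscle differentiation.

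The start-site windows of Cdon and Ptch1 are shown because these were the co-receptor and the receptor with the highest fold estimates on stiff, and because their base composition lay far apart. They are RefSeq windows on GRCm38.p6, from 250 bases before to 50 after an annotated start, written 5′ to 3′ on the gene's strand with CpG dinucleotides in capitals. The Cdon window is chr9:35451826-35452125 on the plus strand, and its start site lies 30548 bases inside the RefSeq gene record. The Ptch1 window is chr13:63565686-63565985 on the minus strand, and its start site lies 7725 bases inside the record.
Cdon: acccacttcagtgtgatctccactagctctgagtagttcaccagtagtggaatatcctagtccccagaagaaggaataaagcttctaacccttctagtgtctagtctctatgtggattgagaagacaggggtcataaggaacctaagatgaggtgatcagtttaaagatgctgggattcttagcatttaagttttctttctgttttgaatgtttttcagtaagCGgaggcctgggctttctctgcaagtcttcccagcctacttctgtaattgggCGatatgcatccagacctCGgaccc
Ptch1: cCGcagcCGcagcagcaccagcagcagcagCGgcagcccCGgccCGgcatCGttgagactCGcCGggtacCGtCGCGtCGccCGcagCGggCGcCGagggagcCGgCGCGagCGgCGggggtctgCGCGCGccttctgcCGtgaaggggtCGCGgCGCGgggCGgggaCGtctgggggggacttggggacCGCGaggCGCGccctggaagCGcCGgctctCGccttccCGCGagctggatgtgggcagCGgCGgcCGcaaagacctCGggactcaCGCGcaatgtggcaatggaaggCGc
The Cdon window held 3 CpG and 44.7% G and C, against a median of 7 CpG and 52.7% over all 32851 windows. The Ptch1 window held 47 CpG and 76.3% G and C. Of the other members, 5 had a window in the table (Gas1, Smo, Gli2, Gli3 and Hhip), with 17 to 39 CpG and 62.3% to 73.7% G and C. The core GLI motif GACCACCCA, searched on both strands, was in 0 of the 7 members' windows and in 0.253% of all windows. The GC box GGGCGG, also searched on both strands, was in 5 of the 7 (Gas1, Ptch1, Gli2, Gli3 and Hhip) and in 35.7% of all windows, and it was not in the Cdon or Smo window. These letters were searched only in windows that start at 1 annotated site each.

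The libraries held 27646471 to 34693673 counts in coding genes. Levels are CPM, counts relative to the library total, scaled by TMM factors, which set the libraries to a common total, and an expression level is not comparable between genes here because no transcript length was used. Cardiomyocyte markers were abundant in every library, with summed levels of 26978 to 37405 CPM over 14 genes on stiff and 25434 to 44554 CPM on soft. The 12 fibroblast markers summed to 7715 to 12297 CPM on stiff and 8413 to 14822 CPM on soft, so the cultures held mesenchymal RNA beside that of cardiomyocytes. In such bulk RNA, fewer cells of a type and less RNA per cell cannot be told apart. Of 7 marker lists, 0 differed between substrates (lowest two-sided exact permutation p = 0.143, adjusted 0.880, for 5 markers of nerve-associated cells). The smallest p that 4 against 4 libraries allow is 0.0286, which adjusted over 7 lists is 0.200 for a single list, and 5 lists would have to separate fully for any to pass. This test could therefore hardly show a difference. Of the 8 tested smooth muscle and pericyte markers 7 had estimates below 0, with a median log2 fold change of -0.31. Over all tested genes 7300 of 14059 were below 0, with a median of -0.01. The summed levels of this list overlapped, at 483 to 581 CPM on stiff and 471 to 697 CPM on soft.

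Of the 9 genes, 7 passed the filter on low counts and 2, Gli1 and Hhip, did not. Among the 14059 coding genes tested by edgeR's quasi-likelihood test, 0 passed at an adjusted p under 0.05 (0% of the background), among them 0 of the 7 members. Before adjustment 130 genes (0.925%) had an edgeR p under 0.05, a smaller share than this threshold gives where no gene differs. With the library number as a replicate block, 360 of 14059 genes did in edgeR and 432 in limma-voom. These too are smaller shares than this threshold gives where no gene differs. A lack of calls in so few libraries does not by itself show that no gene differs. DESeq2 and limma-voom also called 0 genes, and limma-voom with the library number as a replicate block called 8, none of them a member. Of the 7 members, 4 had estimates above 0 and 3 below, with a median log2 fold change of 0.00, beside -0.01 over all tested genes. The stiff and soft libraries overlapped for each of the 7, beside 1.29% of the background without overlap (0.541% with stiff higher).

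**Figure D1:**
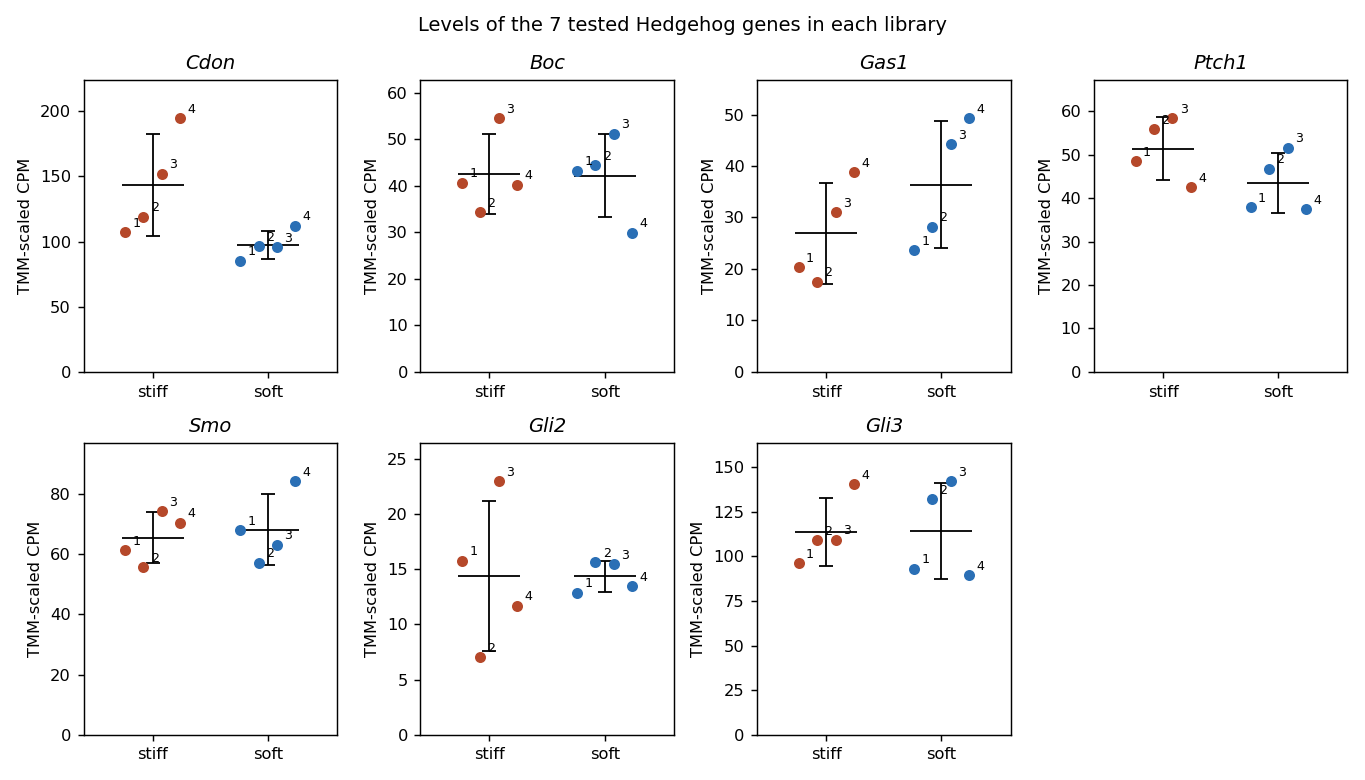
Level of each tested Hedgehog gene in TMM-scaled CPM (vertical axis, from 0) in the 4 stiff libraries (red) and the 4 soft libraries (blue); points carry the library number, and bars give the mean ± SD. Cdon shows 3 of 4 stiff libraries above every soft library, while Boc, Smo, Gli2 and Gli3 have near-equal means on the substrates.

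Cdon (chromosome 9 from 35421528 to 35507652, protein-coding), the co-receptor and muscle cell surface protein, stood higher on stiff. Its levels were 107, 119, 152 and 195 CPM in stiff libraries 1 to 4, against 85.4, 96.6, 95.8 and 112 CPM in soft libraries 1 to 4. Stiff 2, 3 and 4 lay above all soft libraries, and stiff 1 lay below soft 4. The means were 143 ± 39.3 CPM on stiff and 97.5 ± 11.01 CPM on soft (SD, n = 4 each). That is a fold of 1.47 (log2 fold change 0.56, SE 0.20), with an unadjusted 95% interval of 1.10 to 1.96. The stiff libraries were also the more scattered, with a coefficient of variation of 27.5% against 11.3% on soft. Stiff 4 carried much of the difference: without it the log2 fold change was 0.37. That library also had the highest cardiomyocyte marker sum on stiff, 37405 CPM, and the highest fibroblast marker score on stiff, 0.27 (scores are explained below). By summed level its fibroblast markers were not the highest, at 11477 CPM against 12297.5 CPM in stiff 3. The part of either cell type's markers in the Cdon value was not tested.

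Boc (chromosome 16 from 44485045 to 44558870) is the paralogue of Cdon and binds the same ligands. Boc stood at 40.7, 34.3, 54.6 and 40.2 CPM in stiff libraries 1 to 4 and at 43.3, 44.4, 51.2 and 29.98 CPM in soft libraries 1 to 4. Its groups lay over each other, with means of 42.5 ± 8.60 CPM on stiff and 42.2 ± 8.89 CPM on soft. The fold estimate was 1.01, with an interval of 0.724 to 1.40.

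Gas1 (chromosome 13 from 60174405 to 60177535) encodes the third co-receptor, a membrane-anchored protein first known for growth arrest. Gas1 stood lower on stiff in its mean. Its levels were 20.4, 17.5, 31.0 and 38.8 CPM in stiff libraries 1 to 4, against 23.7, 28.2, 44.3 and 49.3 CPM in soft libraries 1 to 4. Stiff 1 and 2 lay below all soft libraries, and stiff 3 and 4 lay inside the soft range. The mean was 26.9 ± 9.82 CPM on stiff and 36.4 ± 12.4 CPM on soft, a fold of 0.740 with an interval of 0.479 to 1.145. The log2 fold change of -0.43 (SE 0.30) was -0.66 without stiff 4, -0.24 without soft 4 and -0.27 without stiff 2. The 3 co-receptor genes thus had estimates above 0, near 0 and below 0.

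Ptch1 (chromosome 13 from 63508328 to 63573460), which encodes the ligand receptor and is itself a target of the pathway, stood at 48.6, 55.9, 58.4 and 42.5 CPM in stiff libraries 1 to 4. It stood at 37.9, 46.8, 51.6 and 37.5 CPM in soft libraries 1 to 4. Stiff 2 and 3 lay above all soft libraries, and stiff 1 and 4 lay within the soft range. The mean was 51.3 ± 7.23 CPM on stiff and 43.4 ± 6.93 CPM on soft, a fold of 1.18 with an interval of 0.881 to 1.58.

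Smo (chromosome 6 from 29735497 to 29761366) encodes Smoothened, the signal transducer that Patched-1 restrains. Smo stood at 61.3, 55.7, 74.2 and 70.4 CPM in stiff libraries 1 to 4, against 68.0, 57.1, 63.1 and 84.2 CPM in soft libraries 1 to 4. Its groups overlapped almost wholly, with stiff 2 alone below the soft range. The fold was 0.960 with an interval of 0.731 to 1.26.

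Gli2 (chromosome 1 from 118834061 to 119054405), the main activator among the Gli factors, was even on soft and scattered on stiff. It stood at 15.8, 7.04, 22.99 and 11.7 CPM in stiff libraries 1 to 4, against 12.9, 15.6, 15.4 and 13.5 CPM in soft libraries 1 to 4. Stiff 3 was the highest and stiff 2 the lowest of all libraries. The means were 14.4 ± 6.76 CPM on stiff and 14.3 ± 1.40 CPM on soft, with a fold of 1.00 and an interval of 0.610 to 1.65, the widest of the 7. The sign of its estimate was negative with limma-voom and with the library number as a block.

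Gli3 (chromosome 13 from 15463723 to 15730026), which acts mainly as the repressor in the absence of ligand, stood at 95.9, 109, 109 and 140.5 CPM in stiff libraries 1 to 4. It stood at 93.1, 132, 142 and 89.4 CPM in soft libraries 1 to 4, and every stiff library lay inside the soft range. The fold was 0.995 with an interval of 0.748 to 1.32, and the sign of so small an estimate turned with RLE scaling.

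**Figure D2:**
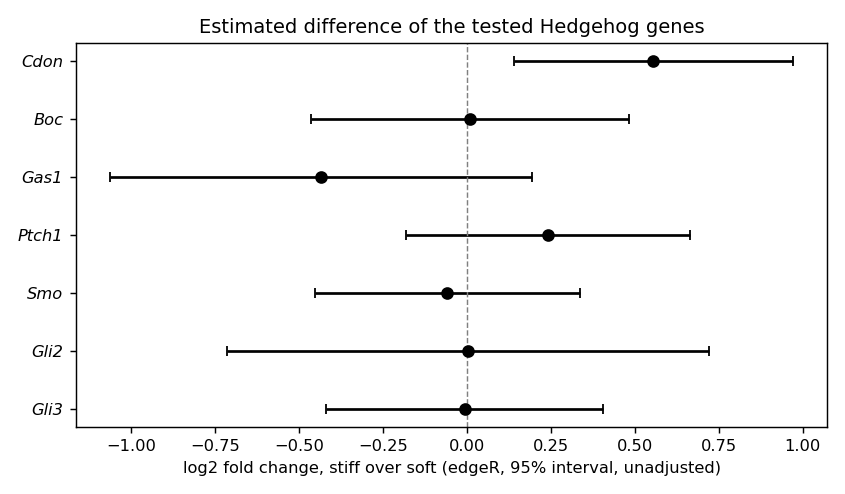
Log2 fold change of stiff over soft from the edgeR fit (horizontal axis) for the 7 tested Hedgehog genes, with unadjusted 95% intervals as bars and a dashed line at 0. The Cdon interval, 0.14 to 0.97, lies above 0, and the other 6 intervals span 0; Cdon was chosen for this value.

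The remaining members were the readout genes Gli1 and Hhip. Gli1 (chromosome 10 from 127329882 to 127341579) encodes the Gli factor that is switched on by the pathway. It had 1, 0, 0 and 2 counts in stiff libraries 1 to 4, against 0, 0, 10 and 0 counts in soft libraries 1 to 4. Soft 3 alone held more than 2 counts of Gli1, at 0.356 CPM. Hhip (chromosome 8 from 79965850 to 80058060), a membrane protein that binds and sequesters the ligand, had 0 counts in all 8 libraries. A count of 0 allows up to 3 counts, or 0.0876 to 0.107 CPM depending on the library, and this limit covers counting error only. Ptch1, the third of the direct targets, had 1137 to 1950 counts per library, so the readout genes were not detected alike.

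Library numbers were shared between substrates. Same-numbered libraries deviated together only weakly, and for number 1 no more than differently numbered ones. In their counts, however, numbers 1 to 3 were each closest to the same number on the other substrate, as described with the processing. Cdon was higher in the stiff library of each of the 4 same-numbered pairs, by 0.32, 0.30, 0.67 and 0.80 on the log2 scale for numbers 1 to 4. Ptch1 was also higher in 4 of 4, by 0.36, 0.26, 0.18 and 0.18. Gas1 was lower in 4 of 4, with differences of -0.22, -0.68, -0.51 and -0.35. Boc, Gli2 and Gli3 were each higher in 2 of 4 and Smo in 1 of 4. Over all tested genes, 4.27% were higher in 4 of 4 pairs and 5.75% were lower in 4 of 4, 10% together. Because these pairs come from the contrast by which Cdon was picked, nothing is read from the count of 3 members in 7.

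The members' levels were compared with markers of the main cell types. For Cdon this is not independent of how it was chosen: the levels over 8 libraries hold the stiff-soft difference, and the p by which it was ranked depends also on the spread within substrates. Scores of the cardiomyocyte and the fibroblast markers (mean log2 CPM of the list relative to its average) were related to the log2 CPM of each of the 7 tested members over 8 libraries, 14 relations in all. None passed a two-sided exact permutation test after Benjamini-Hochberg adjustment. The lowest p was for Smo with the cardiomyocyte score, with Pearson r = 0.85 (exact permutation p = 0.00640, adjusted 0.0896) and Spearman rho = 0.71 (exact permutation p = 0.0576, adjusted 0.324). Without soft 4 and soft 2, the libraries farthest from the median score, r was 0.56. The Smo relation passed the adjustment when stiff 1 was left out (r = 0.89, exact permutation adjusted p = 0.0444).

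Gas1 with the fibroblast score had r = 0.84 (exact permutation p = 0.0144, adjusted 0.101) and rho = 0.79 (exact permutation p = 0.0279, adjusted 0.324), and with r = 0.73 without stiff 1 and soft 4. Cdon had r = 0.57 with the fibroblast score over the 8 libraries (exact permutation p = 0.153, adjusted 0.357) and rho = 0.60 (exact permutation p = 0.132, adjusted 0.459). Without stiff 1 and soft 4 its r was 0.77. As deviations from the substrate means, with pairings permuted only within substrates, r was 0.86 for Cdon (exact permutation p = 0.0122), 0.92 for Gas1 (p = 0.0226) and 0.72 for Smo (p = 0.0799) with the fibroblast score. It was 0.86 for Smo with the cardiomyocyte score (exact permutation p = 0.0174). Adjusted over the 14 relations, the lowest of these p-values was 0.105. With pairings permuted across all 8 libraries instead, the form run first, Cdon with the fibroblast score and Smo with the cardiomyocyte score each had an exact permutation adjusted p of 0.0378 and Gas1 had 0.0545. Orders kept within substrates were adopted after those values were seen, because deviations from 2 different means are not exchangeable across substrates. Neither form keeps same-numbered libraries together. With such libraries moved together there are 24 orders, the smallest p is 0.0417, and 0 of the 14 relations passed after adjustment. Adjusted over 14 relations, that smallest p passes only if nearly all of them reach it, so this form could hardly show a relation. The exact permutation p was then 0.0833 for Cdon and 0.167 for Gas1 with the fibroblast score and 0.0833 for Smo with the cardiomyocyte score (adjusted 0.583 each). For Boc, Ptch1 and Gli2 the fibroblast score gave r between -0.11 and 0.12.

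**Figure D3:**
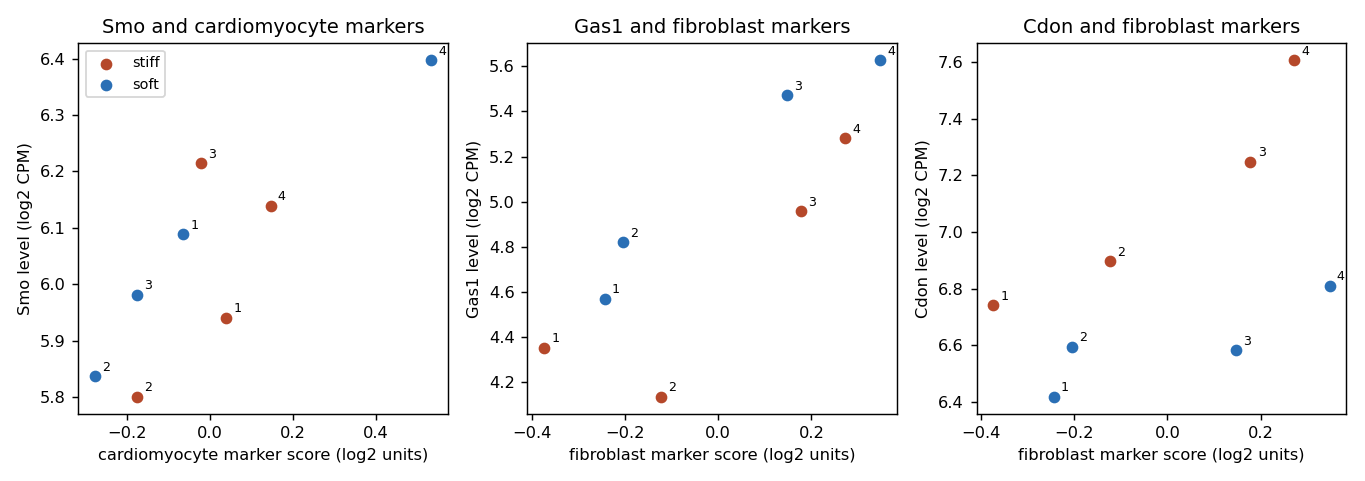
Level of Smo, Gas1 and Cdon in log2 CPM (vertical axes) against the cardiomyocyte or fibroblast marker score in log2 units (horizontal axes), with stiff libraries in red and soft in blue and library numbers beside the points. Libraries 3 and 4 of each substrate had the higher fibroblast scores of that substrate, and for Cdon the stiff libraries 3 and 4 stand above the rest.

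Among the members, Gas1 varied most like Cdon within substrates, with a likeness of r = 0.84 in deviations of log2 CPM from the substrate means over 8 libraries. Of 13229 other genes that averaged at least 1 CPM, the 5 most like Cdon were Ccne2 (cyclin E2, of the entry into S phase; r = 0.99), Hnrnpa2b1 (an RNA-binding protein; 0.99), Xpot (the tRNA export receptor; 0.99), Srsf2 (a splicing factor; 0.98) and Lipo3 (0.98). There were 109 genes with r above 0.9, so that many genes shared this pattern of libraries. The 3 most like Ptch1 were Capn5 (a calpain protease; 0.98), Htr2a (a serotonin receptor; 0.97) and Edil3 (a secreted matrix protein; 0.96). These values rank genes over 8 shared libraries and carry no test.

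Around the members, 111 further genes of the pathway in 6 lists were read, of which 110 were in the table and 99 passed the low-count filter. None of the 99 passed the edgeR test after adjustment, beside the 0% called over all genes. The medians of the lists ran from -0.16 to 0.15 on the log2 scale, beside -0.01 over all tested genes, and 48.1% of all tested genes had estimates above 0. The stiff and soft libraries did not overlap for 1 of the 99, Sufu, beside 1.29% of the background.

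Among ligands, Dhh (Desert hedgehog) was the one detected. It stood at 1.69, 0.817, 2.22 and 0.467 CPM in stiff libraries 1 to 4, against 0.362, 1.51, 1.64 and 0.330 CPM in soft libraries 1 to 4, with wide overlap. Shh and Ihh, for Sonic and Indian hedgehog, had 0 counts in all 8 libraries. Genes for making and releasing the ligand were expressed: Disp1 (Dispatched, which releases the lipid-bearing ligand) stood at 45.8 ± 9.84 CPM on stiff and 44.2 ± 3.66 CPM on soft. Hhat (the acyltransferase that attaches the palmitate) stood at 19.0 ± 10.3 and 23.5 ± 7.04 CPM on stiff and soft, with 4.05 CPM in stiff 3. The secreted carriers Scube2 and Scube3 had log2 fold changes of 0.25 (SE 0.36) and 0.33 (SE 0.39). In this list 5 of 6 tested genes had estimates above 0, and 3 without soft 2.

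Other surface proteins of the pathway gave 3 of 4 estimates above 0, and 1 without soft 4. Gpc3, a glypican that competes with Patched for ligand, stood at 312 ± 99.2 CPM on stiff and 294 ± 109 CPM on soft. Lrp2, a large endocytic receptor that can bind Sonic hedgehog, stood at 67.6 ± 19.96 CPM on stiff and 60.6 ± 27.2 CPM on soft, and Gpc4, a further glypican, had a log2 fold change of 0.12 (SE 0.25). Gpc6, another glypican, stood at 218 ± 96.1 CPM on stiff and 252 ± 97.4 CPM on soft.

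Of 25 tested regulators inside the cell, 10 had estimates above 0 and 15 below. Sufu, which binds and restrains Gli proteins, stood at 16.1, 12.9, 20.3 and 19.6 CPM in stiff libraries 1 to 4, against 22.6, 22.99, 23.3 and 21.8 CPM in soft libraries 1 to 4. All 4 stiff libraries lay below all 4 soft libraries, which were nearly level. The log2 fold change was -0.39 (SE 0.25) and the edgeR adjusted p was 0.99997. The estimate was -0.47 (SE 0.34) for Gpr161, a ciliary receptor that raises cAMP and restrains the pathway, and -0.35 (SE 0.23) for Tulp3, which carries it into the cilium. Dlg5, a scaffold protein that binds Smoothened, had 0.21 (SE 0.20). The kinase gene Csnk1a1 stood at 861 ± 77.1 CPM on stiff and 831 ± 97.5 CPM on soft, and Cul3, of the ligase that degrades Gli proteins, at 254 ± 34.01 and 254 ± 52.1 CPM on stiff and soft.

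All 40 genes of the primary cilium were tested, with 20 estimates above 0 and 20 below and a median log2 fold change of -0.00. Cep164, of the appendages that dock the basal body, had the lowest p of the list, with 20.8 ± 7.54 CPM on stiff and 30.3 ± 5.03 CPM on soft (log2 fold change -0.54, SE 0.28; -0.34 without stiff 3). Pcnt (pericentrin, a centrosome scaffold) had -0.34 (SE 0.27; -0.12 without soft 4 and -0.61 without stiff 4), the BBSome subunit Bbs2 -0.43 (SE 0.31) and the ciliary GTPase Arl3 -0.32 (SE 0.24). The transport motor genes Kifap3 and Dync2h1 stood at 96.7 ± 10.6 and 81.3 ± 11.8 CPM on stiff, against 96.2 ± 18.7 and 71.4 ± 18.2 CPM on soft.

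Further genes reported as Hedgehog targets had 3 of 9 estimates above 0 and a median of -0.16. Without soft 3 or soft 4 the number above 0 was 5 or 6. The low-count filter was run anew in those fits and kept more genes (14305 and 14307, against 14059). Genes that the filter on all 8 libraries had left out, such as Foxf1, could then enter. The 5 and 6 are therefore not out of the same 9 genes. Foxc2, a forkhead factor, stood at 6.54 ± 1.32 CPM on stiff and 9.88 ± 2.01 CPM on soft (log2 fold change -0.59, SE 0.36), and Osr1, a mesenchymal zinc finger factor, at 7.11 ± 1.81 and 10.7 ± 4.92 CPM on stiff and soft (log2 fold change -0.59, and -0.27 without soft 3). The estimate for the Wnt antagonist gene Sfrp1 was -0.28 (SE 0.18) and for Rab34, of ciliary vesicle formation, -0.19 (SE 0.18). The cyclin genes Ccnd1 and Ccnd2, which many pathways drive, had -0.16 (SE 0.37) and -0.08 (SE 0.16). Foxf1, a mesenchymal forkhead factor known as a Hedgehog target in lung and gut, did not pass the filter, with 34, 33, 69 and 0 counts in stiff libraries 1 to 4 against 0, 9, 6 and 2 in soft libraries 1 to 4. Stiff 4 held none of it, and Foxf1 was named after its values were seen. Foxa2 and Nkx2-2, targets in the neural tube, had 0 counts throughout.

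Partners of Cdon in muscle differentiation were expressed at like means on the substrates, with 10 of 15 estimates above 0 and a median of 0.05. Cdh2, the N-cadherin with which Cdon associates, stood at 715 ± 119.6 CPM on stiff and 716 ± 42.4 CPM on soft. Neo1, the netrin receptor neogenin that binds Cdon, stood at 200.1 ± 15.1 CPM on stiff and 174 ± 27.3 CPM on soft. The estimates were 0.10 (SE 0.20) for Spag9, the scaffold that links Cdon to the kinase p38 and is also called JLP, 0.08 (SE 0.16) for the GTPase gene Cdc42 and 0.15 (SE 0.17) for Tcf12, which encodes a dimer partner of myogenic factors. The beta-catenin gene Ctnnb1 had -0.03 (SE 0.16). The skeletal muscle factor genes Myod1 and Myf5 had 0 counts in all libraries.

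**Figure D4:**
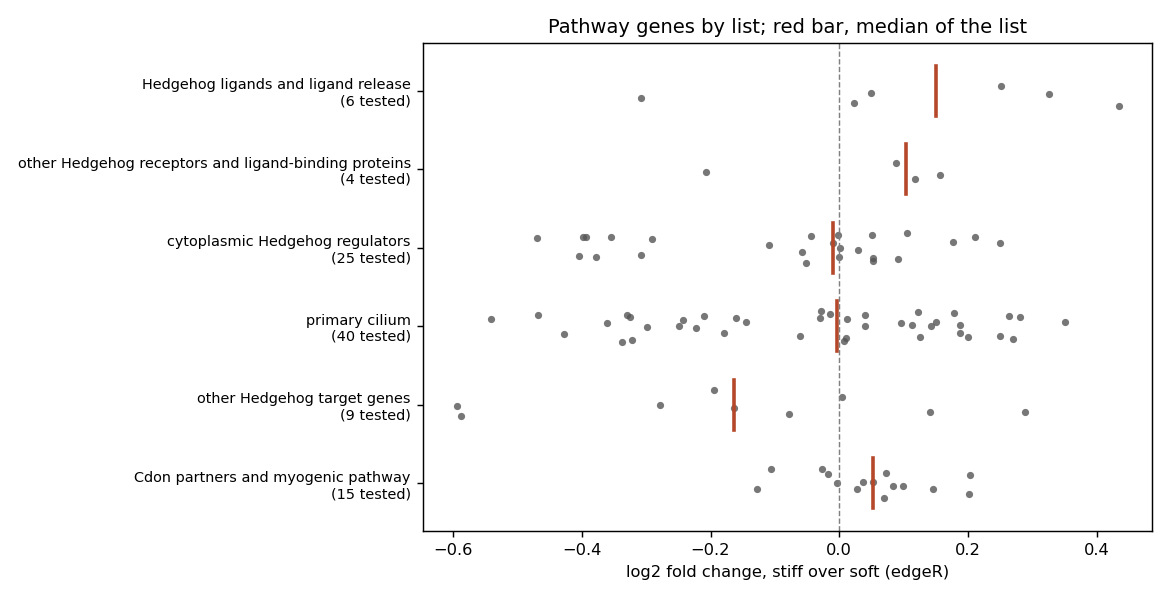
Log2 fold change of stiff over soft from the edgeR fit (horizontal axis) for the 99 tested pathway genes in 6 lists (rows); each point is a gene, the red bar is the median of its list, and the vertical scatter is only for display. The medians lie between -0.16 and 0.15, and the list of Cdon partners is the narrowest around 0 of those with more than 6 genes.

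Positions are those of RefSeq gene records on GRCm38.p6. Records of other genes overlap 7 of the 9: Cdon, Boc, Smo, Gli2, Gli3 and Hhip each overlap noncoding or pseudogene records, and Gli1 overlaps the end of Arhgap9, which stood at a mean of 0.395 CPM. The strand setting of the counting is not given in the sources used here, so reads from such overlaps cannot be told apart.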

How the data were processed

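RNA sequencing gave 8 libraries, 4 per substrate, grouped by the substrate label. The authors deposited raw counts per Ensembl gene. Tools listed without roles in the submitters' processing notes include HTSeq 0.6.1, edgeR, TopHat2 2.0.14, DESeq2 and FastQC 0.11.2, with the build GRCm38. Libraries are not stated to be separate cultures, so p-values measure the spread between libraries, which may be technical. The 9 genes and the lists were chosen with earlier results of these data known.

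The tests used edgeR 4.0.16 under R 4.3.3 (filterByExpr, minimum count 10 and total 15; TMM; robust quasi-likelihood test; Benjamini-Hochberg adjustment, threshold 0.05), on all 14059 genes passing the filter. The pipeline was also run on simulated counts. These were drawn independently for each library, without the likeness between libraries seen here, so nothing about these data is read from them. DESeq2 1.42.0 and limma 3.58.1 served as alternatives, with other scalings and filters, each library left out, and a replicate block. Log2 CPM had a prior count of 2. Chi-square per degree of freedom between libraries ran from 45.8 (stiff 2 with soft 2) to 237 (soft 2 with soft 4), so no pair matched within sampling noise.

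Library numbers follow sample order and match the last digit of the library codes in the titles, which state no pairing. The rest of the code is shared by all soft libraries and differs from that shared by all stiff libraries. A difference that goes with the code series therefore cannot be told apart from one of substrate. Deviations of same-numbered libraries from their substrate means correlated across genes with r of 0.10, 0.18, 0.13 and 0.31 for numbers 1 to 4, each above 0.1, the limit set for reading numbers as pairs. Stiff 1 with soft 2 (0.130) and stiff 2 with soft 1 (0.112) were higher than number 1 itself (0.104). The remaining differently numbered pairs ran from -0.228 to 0.0584. By chi-square, numbers 1 to 3 were each closest to the same number on the other substrate (47.6, 45.8 and 55.7). For number 4 this held only from the side of soft 4, which was closest to stiff 4 (120.7, against 130.1 for stiff 3). Stiff 4 was closer to soft 3 (111.7) than to soft 4. The values thus lean towards shared numbers without settling a pairing, and the main fit leaves it out. Named pathway genes were, in each list, up to 4 with the smallest p and up to 2 with the highest CPM. The order of levels between genes was not tested, since no transcript lengths were used. The noncoding table was not used here. A result for 1 pathway gene is not reported here.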

Additional observations from a re-analysis of the deposited data

Results flagged for a closer look

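Of 98 groups of 4 libraries (9 members, named pathway genes and marker sums on each substrate), 4 held a library far from the other 3, and chance gives about 1 in 20. Gli1 stood at 0.356 CPM in soft 3, from 10 counts, with 0 counts in the other soft libraries. Gpc6 stood at 362 CPM in stiff 4, far above the other stiff libraries. Dlg5 stood at 28.5 CPM in soft 1, below the other soft libraries. The cardiomyocyte marker sum was 44554 CPM in soft 4, while soft 1 to 3 held 25434 to 27132 CPM; without soft 4 the estimate of Gas1 was -0.24 and that of Cdon 0.64 on the log2 scale.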

How the results depend on the processing

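Of 1108 recomputed values, 1077 stayed within their spread or on their side of the threshold and 19 reversed. This counts fold changes given without a test as stable while they move by less than 1 SD, a rule adopted after the values were seen; 57 of the 680 recomputed fold changes had another sign and were first counted as reversed. The Cdon log2 fold change ran from 0.53 to 0.57 under other scalings, filters and tools. With 1 library left out it ran from 0.37 (without stiff 4) to 0.67 (without stiff 1). With the replicate block in edgeR it was 0.52 (SE 0.16), and 0 genes were called; the replicate block with limma-voom called 8 of 14059 genes, with an adjusted p of 0.619 for Cdon, and changed no call of a member or pathway gene. With 1 library left out, the number of marker relations that passed ran from 0 to 1 (Smo with the cardiomyocyte score, without stiff 1). Deviations permuted over all pairings, run first and replaced after seeing the data, gave 2. Orders that keep numbers together, also added after seeing the data, gave 0, but they are too few for any relation to pass easily. With 1 library left out, 17 of the 40 named genes changed sign, members with -0.14 to 0.11 for Boc, -0.13 to 0.07 for Smo, -0.32 to 0.23 for Gli2 and -0.13 to 0.12 for Gli3. Among pathway genes, such ranges were -0.52 to 0.19 for Ccnd1, -0.57 to 0.10 for Gpc6, -0.14 to 0.30 for Gpc3, -0.51 to 0.03 for Hhat, -0.04 to 0.47 for Lrp2 and -0.03 to 0.40 for Gpc4. Leaving out the 2 farthest libraries turned r to 0.0467 (Gli3, cardiomyocyte score), 0.38 (Boc, fibroblast score) and 0.31 (Ptch1, fibroblast score). With 1 library left out, r ran from -0.31 to 0.42 for Boc, -0.37 to 0.25 for Ptch1 and -0.0564 to 0.27 for Gli2 with the fibroblast score, and from -0.32 to 0.12 for Gli2 with the cardiomyocyte score. The log2 ratio of marker sums then ran from -0.0841 to 0.26 for cardiomyocytes, -0.0214 to 0.20 for endothelium, -0.19 to 0.0357 for epicardium, -0.11 to 0.16 for leukocytes and -0.18 to 0.0152 for smooth muscle. The exact permutation test of these 7 libraries has fewer possible splits than that of all 8, so it could hardly show a difference either. The cause of these turns was not tested. The median unadjusted 95% interval of a tested gene reached 1.51-fold to either side, so smaller differences were mostly not detectable. For the 7 tested members the median reach was 1.34-fold. A call after adjustment over 14059 genes needs a larger difference still. None of the 130 genes with an unadjusted edgeR p under 0.05 passed it. The planned order of levels between genes was not run.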
